A study of Mus musculus with 145 samples.

Results

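The Meiotic 2 cluster is the second of 2 groups of cells that the authors named for meiosis-related genes during the reprogramming of mouse spermatogonial stem cells (SSCs) towards pluripotency. Its members were taken from the deposited cell annotation, as the cells whose cluster is Meiotic 2, and they numbered 361 of 4464 cells. The SSCs were derived from neonatal males of the cross B6D2F1, whose C57BL/6 mothers carried an *Oct4*-EGFP or EGFP transgene and whose fathers were DBA/2, and no chemical was added. Cells of these classes were grown without passage on feeder fibroblasts in SSC medium with EGF, bFGF, GDNF and ESGRO, a leukaemia inhibitory factor product, and were collected between day 0 and day 27. Single cells were picked by mouth pipette from SSC-like and PSC-like colonies into wells with a cell barcode and profiled by a modified STRT-seq, in which a unique molecular identifier (UMI) lets PCR copies of a molecule be counted once. The comparison classes were the clusters SSC1 to SSC4, pooled as SSC1-4 (2265 cells), and the sister cluster Meiotic 1 (144 cells), all from the same 46 libraries of SSC reprogramming (4339 cells). Pluripotent gPSC cells, which were cultured in N2B27 medium with 2iL and are in none of these classes, serve only as a reference for shares of cells with a transcript. Labels do not say whether libraries of a day came from separate cultures or animals, so the spread between libraries may be partly technical.

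In the testis, undifferentiated spermatogonia renew themselves under GDNF, which signals through GFRA1 and RET, and differentiate under retinoic acid. Retinoic acid also turns on *Stra8*, whose product works with MEIOSIN to start the meiotic programme. The cell then completes a last S phase, SPO11 cuts the DNA, DMC1 helps repair the cuts from the homologous chromosome, and the cohesin REC8 and the SYCP proteins build the synaptonemal complex. Mitotically cycling spermatogonia express the usual genes of G2 and mitosis, such as cyclin A2, PLK1 and the proliferation antigen Ki-67.

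The cluster was almost wholly a day 16 population. On day 16, 353 of 571 cells (61.8%) were Meiotic 2, whereas the other 9 days together held 8 such cells, 4 on day 14 and 1 each on days 10, 12, 18 and 23. Day 16 replicate 1 holds cells under 2 name prefixes in the tables and was counted as 1 library as its GEO sample gives it. Of the 6 day 16 libraries, replicates 1, 2, 3 and 5 belonged to batch B1 of the annotation and held 74, 64, 87 and 77 Meiotic 2 cells, or 77.1% (95% exact binomial interval 67.4 to 85.0), 66.7% (56.3 to 76.0), 90.6% (82.9 to 95.6) and 81.9% (72.6 to 89.1) of their cells. Replicates 4 and 6 belonged to batch B2. Replicate 4 held 50 Meiotic 2 cells (52.6%, 42.1 to 63.0), and replicate 6 held 1 (1.06%, 0.0269 to 5.79) beside 81 Meiotic 1 cells. The share in replicate 6 lay outside the intervals of all the other day 16 libraries. Since colonies and cells were picked by hand, these shares describe the cells collected, and the intervals cover counting error only.

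**Figure D1:**
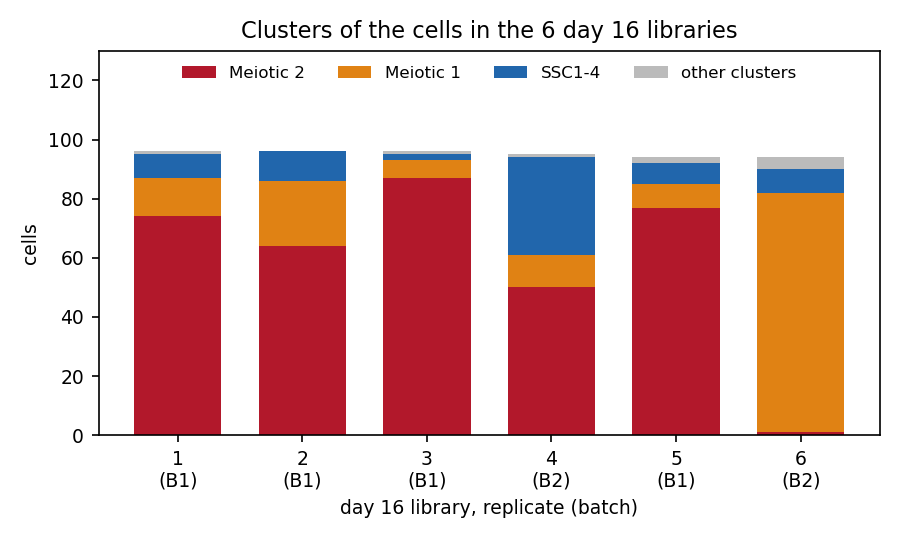
Number of cells (vertical axis) of Meiotic 2, Meiotic 1, SSC1-4 and other clusters in each of the 6 day 16 libraries (horizontal axis, with the batch). Meiotic 2 fills 52.6% to 90.6% of replicates 1 to 5, and replicate 6 holds 1 such cell and 81 Meiotic 1 cells.

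Meiotic 2 cells were deeply sequenced, with a median of 230911 UMIs, 8611 detected genes and 0.934% mitochondrial UMIs. Counts were summed per library and class where a class had at least 5 cells, which gave 5 Meiotic 2 sums of 50 to 87 cells and 12019253 to 21672896 UMIs. Replicates 1, 2, 4 and 5 also held 8, 10, 33 and 7 SSC1-4 cells, of which 46 were SSC1, 9 SSC2, 2 SSC3 and 1 SSC4. In replicates 1, 2 and 5 these SSC1-4 cells were shallower than their Meiotic 2 neighbours, with medians of 66028.5, 57881 and 100558 UMIs against 315440, 225480 and 208470, and had more mitochondrial UMIs, 1.89%, 1.95% and 1.5% against 0.852%, 0.948% and 1.02%. Only in replicate 4 did the medians lie close together, at 190315 and 208876 UMIs and at 0.945% and 0.947%. The part of this depth difference in the comparisons below was not tested, and values of replicate 4 from cells with at least 100000 UMIs are given beside the main results. No 2 cells of the table had identical counts. Of the 96 barcodes seen in the cluster, 92 occurred in more than 1 library, because each plate used the same barcode set.

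Levels are given as CPM, the UMIs of a gene in the sum of a class in a library, scaled so that every sum has the same total. STRT-seq counts the ends of molecules, so levels of different genes are not set against each other here. The comparison within shared libraries used the 4 libraries that hold both classes, with the library as a block, and a call needed both an adjusted p below 0.05 (Benjamini-Hochberg, edgeR's quasi-likelihood test) and a natural-log fold change of at least 0.5. A call weighs the size of a difference against its spread between libraries, and single libraries can go the other way. Because the clusters were drawn on these same transcriptomes, it is no independent test of the cluster. Of 13425 genes tested, 28 (0.209%) were called higher and 39 (0.291%) lower in Meiotic 2, and the median log2 fold change of all genes tested was 0.17.

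None of the 3 marker genes of the cluster was called against the SSCs of its own libraries. *Spo11* (chromosome 2, 172977700 to 172993576, GRCm38), the nuclease that opens meiotic recombination, was at 13.2, 12.6, 11.4, 11.5 and 8.16 CPM in Meiotic 2 of replicates 1 to 5 and at 11.3, 3.28, 12.6 and 4.55 CPM in SSC1-4 of replicates 1, 2, 4 and 5. The groups overlapped, and the log2 difference was 0.47 (SE 0.84, edgeR adjusted p = 0.897). *Dpep3* (chromosome 8, 105973513 to 105979429), a membrane dipeptidase of spermatocytes, spread over 24.5, 13.9, 7.25, 24.1 and 4.71 CPM in Meiotic 2 and over 5.01, 26.2, 48.1 and 6.83 CPM in SSC1-4 (log2 difference -0.33, SE 0.64, edgeR adjusted p = 0.91). In Meiotic 1 its level ranged from 0.329 to 83.3 CPM, so the spread between libraries was wider than the differences between the class means. *Zbtb16* (chromosome 9, 48654297 to 48836222), a transcription factor that keeps SSCs self-renewing, stood at 141, 148, 106, 99.9 and 141 CPM in Meiotic 2 and 77.6, 72.1, 119 and 247 CPM in SSC1-4 (log2 difference 0.03, SE 0.23, edgeR adjusted p = 0.978).

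Other markers of spermatogonia were expressed in every Meiotic 2 sum. *Dazl*, an RNA-binding protein of germ cells, was at 711 to 900 CPM in Meiotic 2 against 1060, 1052, 828 and 1094 CPM in SSC1-4, and *Dmrt1*, a factor that holds spermatogonia out of meiosis, at 213 to 307 CPM against 266, 370, 315 and 398 CPM. Both were lower in Meiotic 2 in each of the 4 shared libraries, but neither was called, at log2 differences of -0.43 (edgeR adjusted p = 0.175) and -0.50 (edgeR adjusted p = 0.135). *Ddx4*, the germ cell RNA helicase, was the steadiest of these genes, with 401, 413, 419, 424 and 440 CPM in Meiotic 2 and 430, 393, 384 and 436 CPM in SSC1-4. The label Meiotic 2 is therefore kept here only as the name of the cluster.

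Of the 13 genes of meiotic entry, 0 were called in either direction against SSC1-4 of the same libraries, beside 0.499% of all genes, and their median log2 difference was -0.42. At that share a count of 0 does not set a list of this length apart from all genes. *Stra8* was at 146, 190, 147, 175 and 160 CPM in Meiotic 2 and at 87.7, 144, 169 and 246 CPM in SSC1-4, which overlapped fully (log2 difference -0.01, edgeR adjusted p = 0.993). *Meiosin*, its partner, listed in the files as *Gm4969* and matched by hand without a RefSeq synonym, was at 1.99 to 7.65 CPM in Meiotic 2 and 2.28 to 30.1 CPM in SSC1-4. *Sohlh1*, a helix-loop-helix factor of differentiating spermatogonia, lay at 320 to 437 and 346 to 382 CPM. Its partner gene *Sohlh2* lay at 64.1 to 93.0 CPM against 32.8 to 266 CPM.

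**Figure D2:**
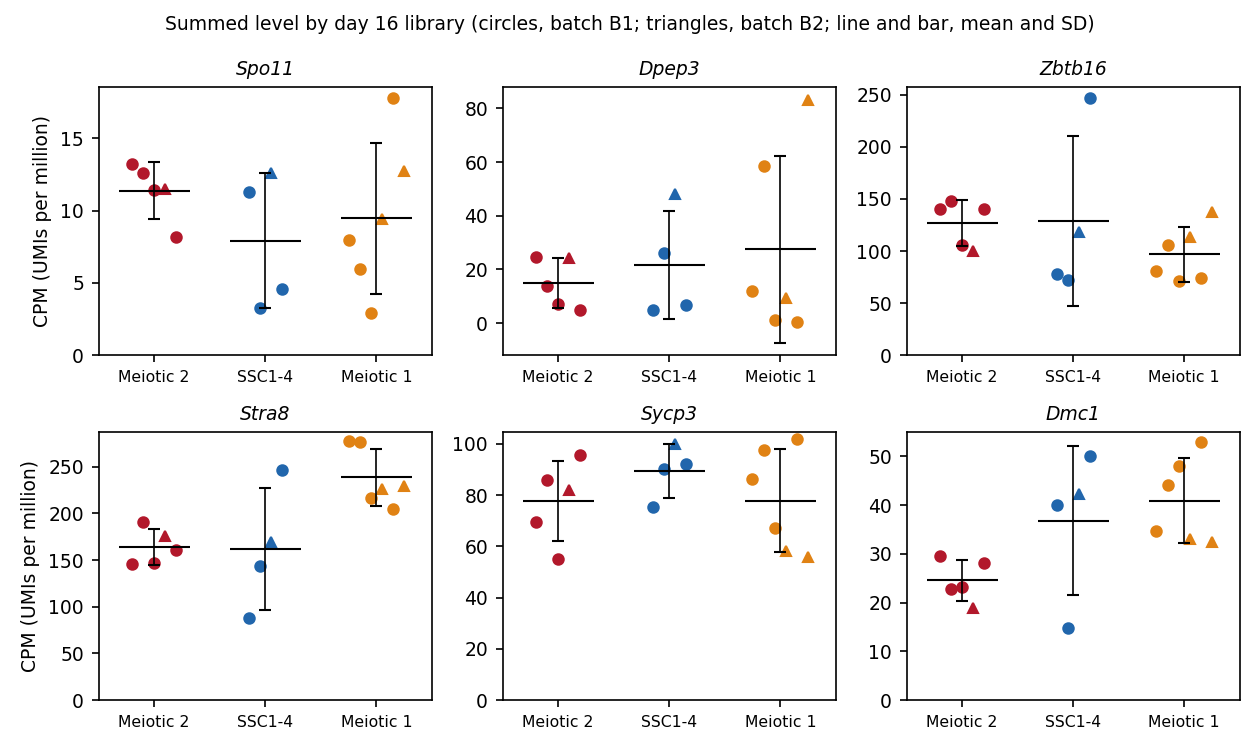
Level in CPM (vertical axes) of *Spo11*, *Dpep3*, *Zbtb16*, *Stra8*, *Sycp3* and *Dmc1* in Meiotic 2, SSC1-4 and Meiotic 1, with a point for each day 16 library (circles B1, triangles B2) and a line and bar for the mean and SD. Meiotic 2 and SSC1-4 overlap for all 6 genes, and *Stra8* is higher in every Meiotic 1 library (205 to 277 CPM) than in any Meiotic 2 library (146 to 190 CPM).

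Of the 16 genes of meiotic cohesin and the synaptonemal complex 0 were called, again beside 0.499% of all genes, with a median log2 difference of -0.10, and of the 29 tested genes of double-strand breaks and recombination 0 were called, with a median of 0.02. *Sycp3*, of the chromosome axis, was at 69.4, 85.7, 55.1, 82.0 and 95.8 CPM in Meiotic 2 and 75.1, 90.1, 100 and 92.2 CPM in SSC1-4. *Dmc1*, the meiotic recombinase, was at 29.6, 22.9, 23.3, 19 and 28 CPM against 40.1, 14.7, 42.3 and 50.1 CPM. *Syce3*, of the central element, was at 212, 278, 228, 281 and 218 CPM against 55.1, 251, 174 and 126 CPM, a log2 difference of 0.71 whose adjusted p of 0.0277 in edgeR passed while its size did not.

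Of 17 spermatocyte genes 13 could be tested and 0 were called, beside 0.499% of all genes, so this count does not set the list apart. *Hspa2*, the heat shock protein of pachytene cells, was at 7.32 to 23.3 CPM in Meiotic 2 and 3.28 to 38.7 CPM in SSC1-4. *Pgk2*, the glycolytic enzyme of spermatocytes, had a UMI in 1 of the 5 Meiotic 2 sums, at 0.166 CPM. The 11 spermatid genes summed to 6.09 to 12.5 CPM in Meiotic 2, and 2 of them had no UMI in any of its sums. Pachytene cells silence the X chromosome as part of meiosis, and here X-linked genes held 2.69% to 2.85% of all UMIs in Meiotic 2, 2.29% to 3.14% in SSC1-4 of the same libraries, 2.89% to 3.15% in Meiotic 1 and 2.64% to 3.18% in the 31 SSC1-4 sums of other days. The Meiotic 2 range lay inside both SSC ranges.

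Genes of G2 and mitosis were low in Meiotic 2. Of the 28 genes of this list 10 were called lower and 0 higher than in SSC1-4 of the same libraries, beside 0.291% of all genes called lower, and all 28 had a log2 difference below 0, with a median of -0.72. Summed, the 28 genes stood at 3618, 3331, 3715, 3265 and 3716 CPM in Meiotic 2 of replicates 1 to 5 and at 5960, 3878, 5442 and 4893 CPM in SSC1-4 of replicates 1, 2, 4 and 5. Every Meiotic 2 value was below every SSC1-4 value, including the 3993 to 7116 CPM of the 32 SSC1-4 sums of other libraries, and below the 5176 to 7543 CPM of Meiotic 1.

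*Mki67* (chromosome 7, 135689784 to 135716361), which encodes the proliferation antigen Ki-67, had 12.7, 19.8, 28.4, 8.24 and 11.8 CPM in Meiotic 2 and 32.6, 45.9, 93.9 and 45.5 CPM in SSC1-4. The groups did not overlap, and the log2 difference was -2.16 (SE 0.47, edgeR adjusted p = 0.00295). *Top2a* (chromosome 11, 98992943 to 99024189), the topoisomerase that separates sister chromatids, had 168, 190, 169, 149 and 194 CPM against 361, 365, 316 and 368 CPM, with a log2 difference of -1.15 (SE 0.17, edgeR adjusted p = 4.14e-08). Its difference lay between -1.10 and -0.92 in each of the 4 libraries. *Ccna2*, cyclin A2, had 94.0, 73.4, 94.2, 56.3 and 75.8 CPM against 228, 80.3, 168 and 201 CPM, and replicate 2 contributed little to its log2 difference of -1.27 (SE 0.23, edgeR adjusted p = 7.26e-05).

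The mitotic kinase gene *Plk1* was at 38.0, 32, 38.8, 30.3 and 36.2 CPM in Meiotic 2 and at 247, 49.1, 77.8 and 61.5 CPM in SSC1-4, with the 247 CPM of replicate 1 far from the rest. The spindle motor *Kif11* was at 20.0 to 33.2 CPM against 58.1 to 77.0 CPM, and the spindle-binding *Nusap1* at 21.5 to 35 CPM against 36 to 81.0 CPM. The other called members of the list were *Aurkb*, *Birc5*, *Hmmr* and *Kif23*, at log2 differences of -0.98, -0.87, -1.22 and -1.12. *Kif11* stayed called in 5 and *Nusap1* in 4 of 13 alternative settings. *Cdk1*, the kinase that drives entry into mitosis, was at 90.4 to 119 CPM against 108 to 282 CPM and was not called (log2 difference -0.77, edgeR adjusted p = 0.0509). Outside the list, the spindle pole gene *Aspm* was at 17.8 to 30.5 CPM against 82.7, 99.9, 73.3 and 22.8 CPM and was called (log2 difference -1.63, edgeR adjusted p = 0.0121) although its groups overlapped through replicate 5.

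**Figure D3:**
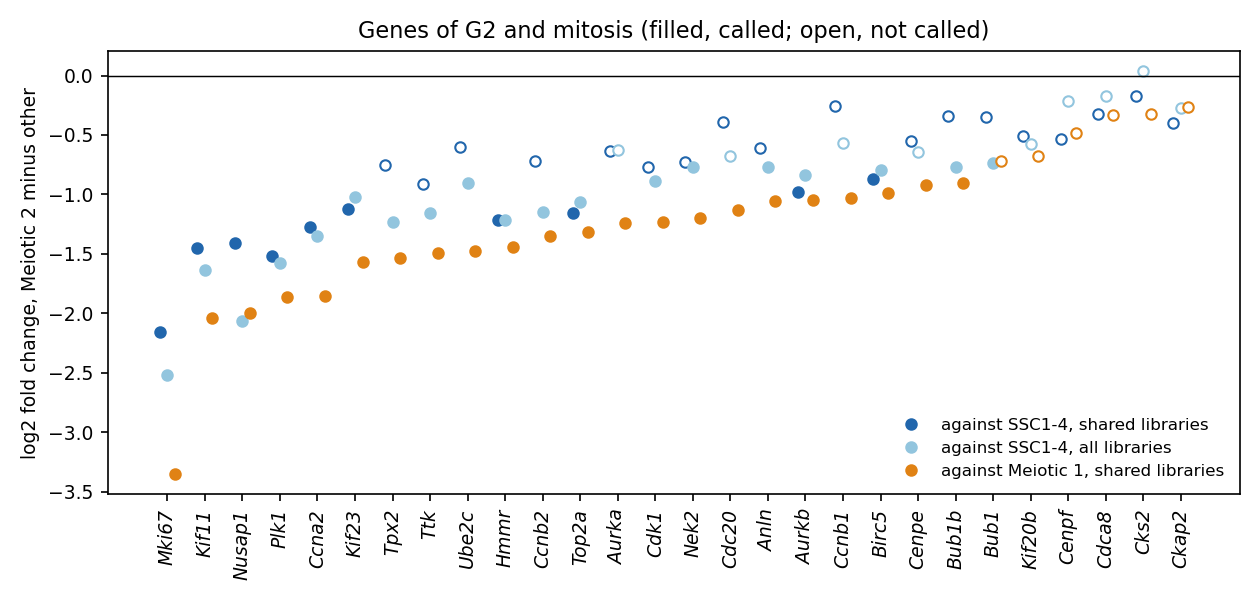
Log2 fold change (vertical axis) of each of the 28 G2 and mitosis genes (horizontal axis) in Meiotic 2 against SSC1-4 of shared libraries (dark blue), SSC1-4 of all libraries (light blue) and Meiotic 1 of shared libraries (orange), filled where called. In the shared libraries all 28 points lie below 0 against SSC1-4, and 10, 19 and 22 genes are called lower in the 3 comparisons.

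The difference was smaller against the SSC1 cells alone. With SSC2, SSC3 and SSC4 left out, 166 of 13046 genes were called in all (104 of them lower), and of the 28 genes 1 was, *Top2a* (log2 difference -0.90), the median was -0.27 and 24 of 28 were below 0. *Mki67* then had a log2 difference of -1.55 and was not called. Without the library as a block 1 gene of 13425 was called in all, *Top2a*, which is a member of the list. With any 1 of the 4 libraries left out 5 to 11 of the 28 genes were called lower, where 27 to 98 genes were called in all, and the medians of the list were -0.90 to -0.56. In replicate 4, from cells with at least 100000 UMIs in both classes, the log2 differences were -3.37 for *Mki67*, -1.12 for *Top2a* and -1.55 for *Ccna2*, close to or beyond those of the whole comparison.

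In single cells the list was compared at equal depth. With each cell thinned to 50000 UMIs, which kept 348 of 353 Meiotic 2 cells of day 16 and 47 of 68 SSC1-4 cells, Meiotic 2 cells held a median of 171 UMIs of the 28 genes (quartiles 142 and 198), SSC1-4 cells of day 16 204, Meiotic 1 cells 303 and SSC1-4 cells of other days 247. The Meiotic 2 medians were 163 to 180 in the 5 libraries, and the SSC1-4 medians of replicates 1, 2, 4 and 5 were 164, 158, 225.5 and 198. In replicates 1 and 2 the Meiotic 2 medians of 177.5 and 165 were above those of SSC1-4, which came from 5 and 6 cells, so that only replicates 4 and 5 went the way of the sums. At this depth 29.3% of Meiotic 2 cells (24.6 to 34.4, exact binomial) had a *Mki67* UMI, against 46.8% of SSC1-4 cells of day 16 (32.1 to 61.9), 70.2% of Meiotic 1 cells and 62.8% of SSC1-4 cells of other days. Unthinned, at unequal depth, the order turned, with 57.2% of Meiotic 2 and 51.5% of SSC1-4 cells of day 16. By library the thinned share was 17.6%, 58.1%, 12% and 23.4% of Meiotic 2 cells in replicates 1, 2, 4 and 5 and 40%, 33.3%, 46.4% and 60% of SSC1-4 cells, so replicate 2 went the other way, with 6 SSC1-4 cells at this depth.

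**Figure D4:**
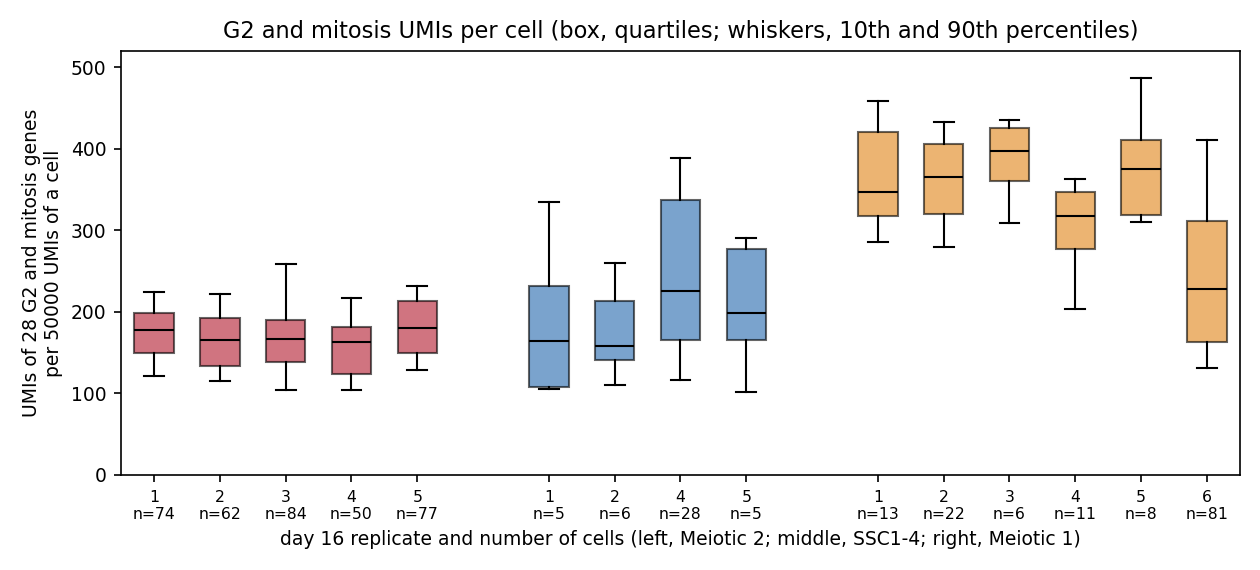
UMIs of the 28 G2 and mitosis genes per 50000 UMIs of a cell (vertical axis) in Meiotic 2, SSC1-4 and Meiotic 1 cells of each day 16 library (boxes, quartiles with the median, whiskers, the 10th and 90th percentiles). Meiotic 2 medians lie at 163 to 180 in all 5 libraries, while Meiotic 1 medians lie at 228 to 397.5.

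Promoters of genes of this list are known to carry cell cycle elements: TTTGAA, the core of the cell cycle genes homology region bound by the DREAM complex, and several CCAAT boxes bound by NF-Y. Those of 3 called genes are shown, chosen for how they differ in these elements, as the 250 bases upstream of the RefSeq start on GRCm38.p6, 5′ to 3′ on the gene's strand, with TTTGAA and CCAAT in capitals on either strand (so also TTCAAA and ATTGG). *Mki67* is at chr7:135716380-135716629 (minus strand), *Top2a* at chr11:99024190-99024439 (minus strand) and *Nusap1* at chr2:119618048-119618297 (plus strand).
Mki67: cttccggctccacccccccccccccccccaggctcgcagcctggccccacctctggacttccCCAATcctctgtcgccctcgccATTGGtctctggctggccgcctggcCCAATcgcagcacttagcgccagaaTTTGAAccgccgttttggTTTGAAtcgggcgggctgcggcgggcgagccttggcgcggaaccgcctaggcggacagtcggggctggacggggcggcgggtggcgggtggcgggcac
Top2a: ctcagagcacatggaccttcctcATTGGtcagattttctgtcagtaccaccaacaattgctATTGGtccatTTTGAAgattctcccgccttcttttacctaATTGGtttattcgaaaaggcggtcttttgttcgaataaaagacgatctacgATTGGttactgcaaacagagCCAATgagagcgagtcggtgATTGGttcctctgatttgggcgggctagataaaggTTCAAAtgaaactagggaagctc
Nusap1: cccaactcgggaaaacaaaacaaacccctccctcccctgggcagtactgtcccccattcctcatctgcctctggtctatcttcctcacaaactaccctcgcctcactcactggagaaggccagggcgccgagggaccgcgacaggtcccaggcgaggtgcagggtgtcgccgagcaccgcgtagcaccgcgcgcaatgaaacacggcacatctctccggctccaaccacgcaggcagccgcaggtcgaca
The *Mki67* stretch held 2 TTTGAA and 3 CCAAT, that of *Top2a* 2 and 6, and that of *Nusap1* 0 and 0, although all 3 genes were called. RefSeq windows of 250 bases before to 50 after the start were matched for 25 of the 28 genes. TTTGAA on either strand was in 72% of them against 17.9% of all 32851 windows, at least 2 CCAAT in 60% against 11.7%, and both in 44% against 2.09%. Windows of the S phase list held them in 14.8%, 37.0% and 3.70%. A match describes letters in a window and is not evidence of binding in these cells.

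S phase genes differed less. Of 28 genes 1, *Rrm2*, was called lower, beside 0.291% of all genes, with a median of -0.36, and 27 of 28 were below 0. *Rrm2*, a subunit of ribonucleotide reductase, had 45.9, 36.3, 46.9, 34.9 and 40.9 CPM in Meiotic 2 and 131, 68.8, 89.2 and 95.6 CPM in SSC1-4, with no overlap (log2 difference -1.40, SE 0.31, edgeR adjusted p = 0.0031). *Pcna*, the replication clamp, overlapped at 169 to 206 and 147 to 331 CPM. The gene *2810417H13Rik*, which encodes a PCNA-associated factor, was outside the lists and had 29, 39.4, 49.6, 43.1 and 32.1 CPM against 148, 49.1, 122 and 302 CPM (log2 difference -2.04, SE 0.28, edgeR adjusted p = 2.43e-09). The replication-dependent histone gene *Hist1h2ae* was at 16.3 to 32.6 CPM against 31.3 to 117 CPM and was also called. The 28 S phase genes summed to 4163 to 4301 CPM in Meiotic 2 and 4229 to 6382 CPM in SSC1-4.

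Called lower outside the cell cycle lists were *Smad7*, *Bmpr1a* and *Ankrd49*, named for their size of change. *Smad7*, an inhibitor of signalling by the TGF-beta family, was at 7.24, 3.52, 13.4, 4.66 and 6.59 CPM in Meiotic 2 and 90.2, 13.1, 15.7 and 21.6 CPM in SSC1-4 (log2 difference -2.39, SE 0.64, edgeR adjusted p = 0.0306). *Bmpr1a*, a receptor of bone morphogenetic proteins, was at 17.6 to 33.1 CPM against 128, 47.5, 34.8 and 43.3 CPM. For both genes replicate 1 of SSC1-4 stood far above the others, and of 13 alternative settings *Smad7* stayed called in 5 and *Bmpr1a* in 3. *Ankrd49*, an ankyrin repeat gene, was also called, but in replicate 4 its levels of 53.7 and 54.7 CPM were alike.

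In each of the retinoic acid and DNA methylation lists 1 gene was called higher in Meiotic 2, *Crabp2* and *Dnmt3l*. *Crabp2* (chromosome 3, 87948666 to 87953376), which binds retinoic acid in the cytoplasm and carries it to its nuclear receptors, had 113, 84.8, 81.5, 183 and 92.8 CPM in Meiotic 2 and 8.77, 31.1, 63.9 and 2.28 CPM in SSC1-4. The groups did not overlap, and the log2 difference was 2.41 (SE 0.34, edgeR adjusted p = 1.64e-08). It was 1.72 in replicate 4 between cells of at least 100000 UMIs. At 50000 UMIs a cell, 76.7% of Meiotic 2 cells, 57.4% of SSC1-4 cells of day 16 and 48.4% of SSC1-4 cells of other days had a *Crabp2* UMI. By library the SSC1-4 shares were 20%, 50%, 78.6% and 0% in replicates 1, 2, 4 and 5, each below the 77.0%, 71.0%, 92% and 76.6% of Meiotic 2. *Crabp2* was the 1 called gene of the 8 tested in the retinoic acid list of 13, beside 0.209% of all genes called higher. Of these 8 genes 6 lay above 0, with a median log2 difference of 0.87 beside 0.17 for all genes. *Stra8* (-0.01) and *Aldh1a2* (-0.64) lay below 0. With *Crabp2* included, the list summed to 379 to 454 CPM in Meiotic 2 and 202 to 340 CPM in SSC1-4 of the shared libraries. The classic targets *Rarb* and *Cyp26a1* were at 0 to 1.33 and 0 to 0.508 CPM in Meiotic 2 and had no UMI in SSC1-4 of the shared libraries.

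*Dnmt3l*, the cofactor of the de novo DNA methyltransferases in germ cells, had 35.8, 28.1, 39.2, 58.3 and 35.6 CPM in Meiotic 2 and 6.26, 4.91, 21.1 and 1.14 CPM in SSC1-4, again with no overlap (log2 difference 2.4, SE 0.60, edgeR adjusted p = 0.0179). In replicate 4, between cells of at least 100000 UMIs, the log2 difference was 1.43. Of the 9 DNA methylation genes 8 were tested and it was the 1 called, beside 0.209% of all genes called higher, and *Dnmt3b*, the enzyme it assists, was at 58.7 to 87.8 CPM against 28.8 to 123 CPM. *Upp1*, uridine phosphorylase, was the 1 gene called higher of 16 of differentiating spermatogonia, beside the same share, with 208, 195, 155, 196 and 238 CPM against 32.6, 78.6, 124 and 194 CPM. The groups overlapped at 155 and 194 CPM, but the log2 difference within each library was above 0, from 0.30 to 2.64, and 1.005 in the fit (SE 0.21, edgeR adjusted p = 0.00213). *Kit*, the receptor that marks differentiating spermatogonia, overlapped at 3.24 to 16.1 and 5.64 to 24.6 CPM.

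*Dmkn*, which encodes the secreted protein dermokine, had 72.9, 102, 70.1, 12.1 and 60.6 CPM in Meiotic 2 and 36.3, 13.1, 1.34 and 4.55 CPM in SSC1-4, with a log2 difference of 2.46 (SE 0.48, edgeR adjusted p = 0.000302). The 12.1 CPM of replicate 4 was within the SSC1-4 range of the other libraries. *Cfap53*, of motile cilia and centrioles, had 73.9, 54.3, 62.9, 92.2 and 62.5 CPM against 13.8, 24.6, 29.4 and 3.41 CPM. *Sparc*, a secreted protein of the matrix, had 103, 42.1, 119, 44.4 and 49.98 CPM against 40.1, 6.55, 18.9 and 2.28 CPM. Fibroblasts, the feeder cells among them, express it strongly. The 20 genes of the fibroblast list summed to 384, 198, 448, 106 and 132 CPM in Meiotic 2 and 91.4, 170, 104 and 100 CPM in SSC1-4, and their part in the *Sparc* difference was not tested.

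The dynein light chain gene *Dynlrb2* (6.75 to 14.1 CPM) and the lipase gene *Pnliprp2* (13.6 to 27 CPM) rested on 6 and 9 UMIs in all 4 SSC1-4 sums together. *Myo5b*, a myosin motor, was at 7.90 to 12.7 CPM in Meiotic 2, with 1 UMI in those 4 sums, so no fold is given. SSC1-4 cells of other days reached higher levels of all 3, with medians of 7.22, 9.61 and 7.66 CPM, so that Meiotic 2 was not called higher than they were. The unnamed models *Gm28578* and *Gm26620* were also among the called genes.

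**Figure D5:**
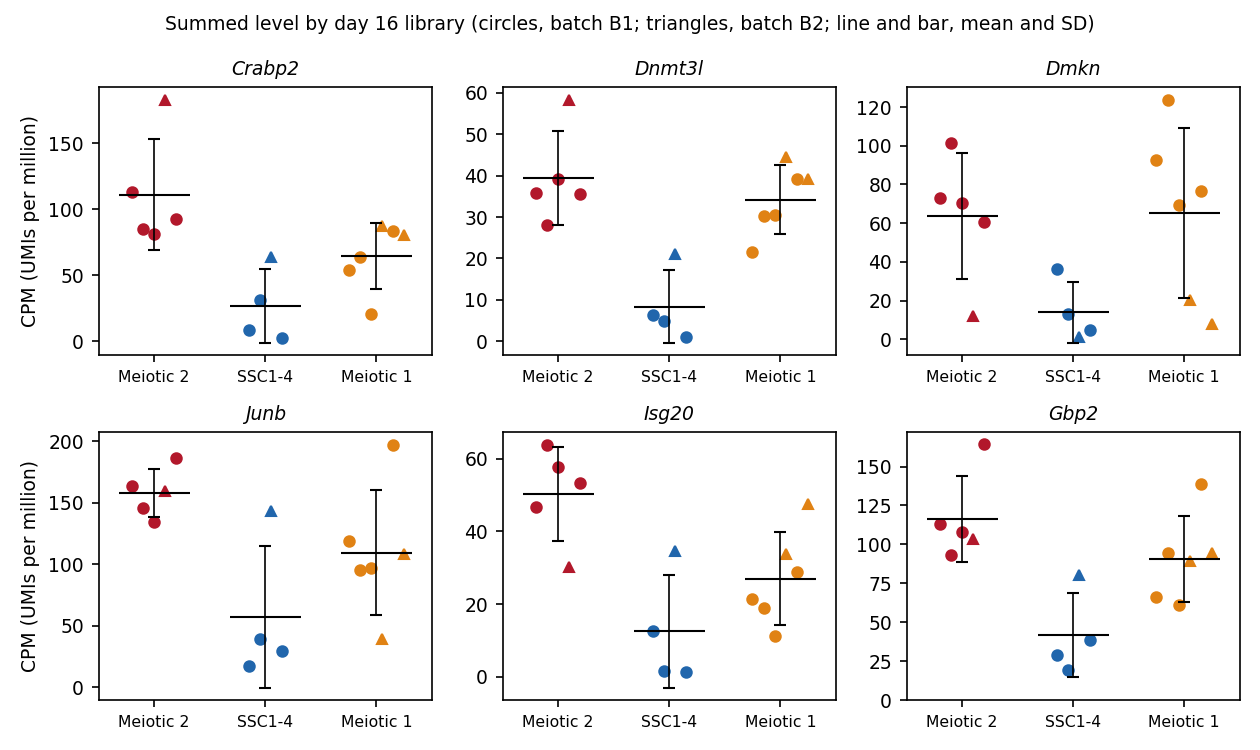
Level in CPM (vertical axes) of *Crabp2*, *Dnmt3l*, *Dmkn*, *Junb*, *Isg20* and *Gbp2* in Meiotic 2, SSC1-4 and Meiotic 1, with a point for each day 16 library (circles B1, triangles B2) and a line and bar for the mean and SD. In replicate 4, a triangle, *Junb* (159 and 143 CPM) and *Isg20* (30.1 and 34.5 CPM) lie close together in Meiotic 2 and SSC1-4, while *Crabp2* (183 and 63.9 CPM) does not.

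For *Junb* and *Isg20*, both called higher in Meiotic 2, the summed levels differed in replicates 1, 2 and 5 and were close in replicate 4. Replicates 1, 2 and 5 are of batch B1 and had the deeper Meiotic 2 cells, and replicate 4 is of batch B2. Depth and batch thus differ together, and their part was not tested. At 50000 UMIs a cell, *Isg20* was in 40% of Meiotic 2 and 14.3% of SSC1-4 cells of replicate 4, and *Junb* in 88% and 78.6%. *Junb*, an AP-1 subunit induced by growth factors and by handling, had 163, 145, 135, 159 and 186 CPM in Meiotic 2 and 17.5, 39.3, 143 and 29.6 CPM in SSC1-4 (log2 difference 1.72, SE 0.27, edgeR adjusted p = 7.02e-07). In replicate 4, between cells of at least 100000 UMIs, the log2 difference was 0.05. *Socs3*, an inhibitor of cytokine signalling, was the other gene called higher of the 21 tested on the immediate early and heat shock list, beside 0.209% of all genes, with 198, 136, 183, 100 and 195 CPM against 56.4, 106, 83.9 and 54.6 CPM, and 0.24 in replicate 4. It stayed called in 3 of 13 alternative settings. *Egr1*, another immediate early gene, was at 150 to 226 and 95.2 to 169 CPM and was not called.

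Several genes known to be inducible by interferon were picked out after their values were seen, with no list or count behind them. *Isg20*, an antiviral exonuclease, had 46.7, 63.9, 57.8, 30.1 and 53.4 CPM in Meiotic 2 and 12.5, 1.64, 34.5 and 1.14 CPM in SSC1-4 (log2 difference 2.24, SE 0.57, edgeR adjusted p = 0.0187), and in replicate 4 the difference between cells of at least 100000 UMIs was -0.44. The guanylate-binding *Gbp2* had 113, 93.4, 108, 103 and 164 CPM against 28.8, 19.7, 80.6 and 38.7 CPM, with 0.34 in replicate 4. *Zbp1*, a sensor of unusual nucleic acids, had 248, 182, 216, 91.1 and 146 CPM against 87.7, 123, 25.4 and 146 CPM, with 1.92 in replicate 4. *Irgm1*, an interferon-induced GTPase, and *Oasl2*, of the oligoadenylate synthetase family, had their highest Meiotic 2 values in replicate 4, at 107 and 104 CPM against 28.6 to 39.0 and 22.8 to 34.2 CPM in the other libraries. Of 13 alternative settings *Zbp1* stayed called in 2 and *Oasl2* in 4. *Rtp4* and *Ifi47* were not called.

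Of 24 tested genes of undifferentiated spermatogonia 0 were called, beside 0.499% of all genes, but 20 lay above 0, with a median log2 difference of 0.54 beside 0.17 for all genes, and the list summed to 1495 to 1683 CPM in Meiotic 2, above the 1092 to 1450 CPM of SSC1-4 in the same libraries and within the 1296 to 2391 CPM of SSC1-4 in the others. *Nanos3*, a translational repressor of undifferentiated spermatogonia, had 322, 333, 332, 384 and 316 CPM against 170, 203, 267 and 189 CPM, with no overlap, a log2 difference of 0.58 and an edgeR adjusted p of 0.0585. The GDNF receptor genes *Ret* and *Gfra1* were at 35.8 to 65.2 and 6.28 to 17.6 CPM against 2.5 to 85.2 and 0 to 12.5 CPM. *Id4*, a marker of the most primitive SSCs, was at 3.52 to 13.3 CPM against 0 to 10.2 CPM.

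Of the tested genes, 19 of germ cell identity, 20 of GDNF, FGF and ERK signalling, 20 of p53 targets, 21 of amino acid and unfolded protein stress, 22 of cholesterol synthesis, 18 of hypoxia, 18 of glycolysis and 14 of pluripotency, 0 were called within shared libraries, beside 0.499% of all genes. Of the 20 fibroblast genes 14 were tested and 0 called within shared libraries, but 13 were above 0, with a median log2 difference of 0.85 beside 0.17 for all genes, and their part in the results was not tested. Besides the levels given with *Sparc*, they summed to 156 to 268 CPM in Meiotic 1, and *Col1a1* was at 41.8 to 90.4 CPM in Meiotic 2. The 15 neural genes summed to 116 to 173 CPM in Meiotic 2 and 72.6 to 179 CPM in SSC1-4. The 13 Sertoli and Leydig genes summed to 34.3 to 49.4 CPM in Meiotic 2, with 3 of them at 0 in every sum, and to 21.3 to 35.1 CPM in SSC1-4, and all 5 that could be tested lay above 0 (median 0.58) with 0 called. Their part in the results was not tested. The pluripotency genes summed to 364 to 566 CPM in Meiotic 2 and 285 to 491 CPM in SSC1-4, with *Pou5f1* at 1.91 to 11.5 CPM and *Sox2* at 1.85 to 3.63 CPM.

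Against the SSC1-4 sums of all days, 36 in number and shared in part with the comparison above, 139 of 17189 genes (0.809%) were called higher in Meiotic 2 and 203 (1.18%) lower, 1.99% in either direction, with a median of -0.02. Of the 36 sums 5 were of day 16, and the fit had no term for the day or the library, so its differences are in part those between day 16 and other days. Of the G2 and mitosis genes 19 of 28 were called lower and 0 higher, with a median of -0.82. *Mki67* in the 31 SSC1-4 sums of other days had a lowest, median and highest level of 44.6, 99.3 and 152 CPM, all above the 8.24 to 28.4 CPM of Meiotic 2 (log2 difference -2.52, SE 0.29, edgeR adjusted p = 2.33e-07). *Top2a* there had 224, 365 and 477 CPM (log2 difference -1.06, edgeR adjusted p = 3.12e-05). Of the S phase genes 5 of 28 were called lower, *Mcm3*, *Rrm2*, *Chaf1b*, *Prim1* and *E2f8*, beside a median of -0.44.

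Of the meiotic entry genes 1 of 13 was called, of cohesin and synaptonemal complex 0 of 16, of recombination 0 of 30 and of the spermatocyte genes 1 of 15, beside 1.99% of all genes. The median of the meiotic entry genes, -0.42 within shared libraries, was 0.06 here, with 9 of 13 above 0, so its direction was not kept. *Spo11* had 0.233, 5.21 and 9.48 CPM as lowest, median and highest over SSC1-4 of other days, against 8.16 to 13.2 CPM in Meiotic 2 (log2 difference 1.16, SE 0.44, edgeR adjusted p = 0.151). *Sohlh2* was called lower, at 64.1 to 93.0 CPM against 86.1 to 230 CPM (log2 difference -1.01, edgeR adjusted p = 0.00105), and *Hspa2* likewise, at 7.32 to 23.3 CPM against 17.4 to 67.7 CPM. The genes of undifferentiated spermatogonia also turned, from a median of 0.54 within shared libraries to -0.34, with 7 of 26 above 0, and *Gfra1*, *Ret* and *Id4* were at -1.39, -0.94 and -1.05 without a call. Of these 26 genes 1 was called in each direction, and *Nanos3* was the one called higher (log2 difference 0.77, edgeR adjusted p = 0.00769). *Elavl2*, an RNA-binding protein of germ and nerve cells, and *T*, the mesoderm factor that GDNF sustains in SSCs, were called lower, with *T* at 0.300 to 1.69 CPM in Meiotic 2 and a median of 11.3 CPM in SSC1-4 of other days.

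*Crabp2*, *Dnmt3l*, *Junb*, *Isg20*, *Zbp1*, *Dmkn* and *Cfap53* were called higher here too, with log2 differences of 1.22, 1.58, 1.23, 1.83, 1.51, 2.39 and 1.08. *Gbp2*, *Irgm1*, *Oasl2*, *Sparc* and *Upp1* were not, and their SSC1-4 medians on other days were 96.3, 29.8, 41.4, 66.0 and 99.0 CPM. Of 22 genes of cholesterol synthesis 4 were called higher, *Mvd*, *Mvk*, *Lss* and *Stard4*, beside 0.809% of all genes. Beside 1.18% of all genes, 2 of 19 hypoxia genes (*Slc2a1* and *Ankrd37*) and 2 of 18 glycolysis genes (*Pfkl* and *Pfkp*) were called lower. Of the 20 fibroblast genes 1 was called higher, *Col1a1* (log2 difference 0.91), 16 were above 0, and their median was 1.30 beside -0.02 for all genes. *Slc2a1*, the glucose transporter, was at 31.1 to 42.2 CPM in Meiotic 2 and at 58.7 to 243 CPM in SSC1-4 of other days, yet at 6.26 to 56.5 CPM in SSC1-4 of the shared libraries.

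To see what differed with the day among SSC1-4 cells, the 5 day 16 sums were set against 11 sums of days 14 and 18, with the batch (B1 or B2) as a term in the fit. Of 14867 genes, 144 (0.969%) were called higher on day 16 and 162 (1.09%) lower, 2.06% in either direction, with a median of -0.05. These 5 sums are in part those compared with Meiotic 2 above, so the values stand side by side and are not independent. Of the G2 and mitosis genes 1, *Nusap1*, was called lower on day 16, with a median of -0.10, where Meiotic 2 had a median of -0.82 against all SSC1-4 sums. *Slc2a1* was called lower (-1.36) and *Egr1* (1.59) and *Junb* (1.31) higher on day 16 among SSC1-4 cells. Of the 22 cholesterol genes 10 were called higher on day 16, with a median of 0.77. The meiotic entry genes had a median of 0.36 and those of undifferentiated spermatogonia one of -0.35. *Crabp2* (-1.10) and *Dnmt3l* (-0.31) were not called. These calls depended on which sums entered. With at least 10 cells a sum 72 genes were called in all and 2 of the 22 cholesterol genes, and with sums of at least 100000 median UMIs, chosen after seeing the data, 12 genes and 0 of the 22 (median 0.63). Leaving out replicate 4 gave 343 genes called higher and 11 of the cholesterol genes, leaving out replicate 6 gave 69 and 5, and leaving out replicate 5 gave 130 and 4. With cells of at least 100000 UMIs 5 of the 16 sums were left, replicate 4 of day 16 and 4 of the other days, all of batch B2. Batch B1 then held no day 16 sum and was left out as a whole. That setting therefore changed batch along with depth and gives no check of depth alone.

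Meiotic 1, the sister cluster, shared 5 day 16 libraries with Meiotic 2, and here both classes were deep. Of 13550 genes tested, 231 (1.70%) were called higher in Meiotic 2 and 241 (1.78%) lower, 3.48% in either direction, with a median of 0.09. Of the 28 G2 and mitosis genes 22 were called lower and 0 higher, and all 28 were below 0, with a median of -1.22. *Mki67* was at 172, 198, 90.03, 160, 165 and 58.3 CPM in Meiotic 1 of replicates 1 to 6, all above Meiotic 2 (log2 difference -3.35, SE 0.26, edgeR adjusted p = 6.24e-08). *Top2a* was at 421, 489, 429, 402, 460 and 318 CPM (log2 difference -1.31, SE 0.07, edgeR adjusted p = 2.03e-10). *Cdkn3*, a phosphatase of CDK1 noted after its values were seen, was at 74.9 to 182 CPM in Meiotic 1 and 33.3 to 49.1 CPM in Meiotic 2.

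Of the meiotic entry genes 1 of 13 was called, of cohesin and synaptonemal complex 0 of 16, of the 29 tested recombination genes 2 and of the 13 tested spermatocyte genes 1, beside 3.48% of all genes. *Stra8* was lower in Meiotic 2 in every library, with a log2 difference of -0.52 that passed the adjusted p (0.00179 in edgeR) but not the size of a call. *Dmc1* (-0.76, edgeR adjusted p = 0.0491), *Sohlh2* (-0.82) and *Hspa2* (-1.53) were called lower, and *Hsf2bp*, which helps BRCA2 in meiotic recombination, was called higher (0.73, edgeR adjusted p = 0.00408). *Zbtb16* was higher by 0.55 (edgeR adjusted p = 0.0184), short of the size of a call. *Spo11* and *Dpep3* were not called, at 0.58 and 1.03.

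Some genes called against SSC1-4 were not called against Meiotic 1. *Dnmt3l* (log2 difference 0.28), *Dmkn* (-0.30) and *Sparc* (0.28) were not called, whereas *Crabp2* (0.92), *Isg20* (1.19), *Cfap53* (1.31), *Rtp4* (4.78) and *Ifi47* (2.22) were called higher in Meiotic 2. *Rtp4*, a chaperone induced by interferon, was at 5.54, 10.2, 11, 13.8 and 10.6 CPM in Meiotic 2, and in Meiotic 1 it ranged from 0 to 9.70 CPM. *Ccnd2*, the cyclin of differentiating spermatogonia, was called higher (0.73, edgeR adjusted p = 5.63e-06), at 406 to 567 CPM against 216 to 416 CPM. The p53 targets *Ccng1* (-0.80) and *Plk2* (-1.49) were called lower, and *Cdkn1a*, the CDK inhibitor p21, was at 139 to 210 CPM in Meiotic 2, 208 to 334 CPM in Meiotic 1 and 54.0 to 187 CPM in SSC1-4, and was not called against either class.

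Shares of single cells with a UMI were pooled over libraries, so their intervals cover counting error and not the spread between libraries. With 50000 UMIs a cell, 21.3% of Meiotic 2 cells of day 16 (17.1 to 25.9) had a *Spo11* UMI, 23.4% of SSC1-4 cells of day 16 (12.3 to 38.0), 22% of Meiotic 1 cells (15.4 to 29.7) and 9.06% of SSC1-4 cells of other days (7.85 to 10.4). By library the *Spo11* share was 14.3% to 25.8% in Meiotic 2 and 60%, 0%, 21.4% and 40% in SSC1-4 of replicates 1, 2, 4 and 5, where 5, 6, 28 and 5 cells reached this depth. Unthinned, at unequal depth, a *Spo11* UMI was in 39.4% of Meiotic 2 and 29.4% of SSC1-4 cells of day 16. In pluripotent gPSC cells 0 of 77 had one, which allows a share of up to 4.68%. *Dpep3* was in 15.8%, 29.8%, 49.6% and 13.7% of the same 4 classes and in 6.49% of gPSC cells. The Meiotic 1 share was carried by replicate 6, at 70.4% of 81 cells, and was 0% to 36.4% in the other 5 libraries. *Stra8* was in 88.5% of Meiotic 2 cells, 85.1% of SSC1-4 cells of day 16 and 2.60% of gPSC cells. *Dnmt3l* was in 49.7% of Meiotic 2, 25.5% of SSC1-4 cells of day 16 and 53.2% of Meiotic 1 cells, and *Junb* in 89.4%, 70.2% and 76.6%.

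The 8 Meiotic 2 cells from other days together held 1934942 UMIs and are given without a test. Their 28 G2 and mitosis genes summed to 3649 CPM, within the 3265 to 3716 CPM of the day 16 sums. *Mki67* had 16 UMIs, or 8.27 CPM (95% exact Poisson interval 4.73 to 13.4), and *Top2a* 148 CPM (132 to 167). *Crabp2* was at 195 CPM (176 to 216), above every day 16 sum, whereas *Junb* at 84.8 CPM, *Dmkn* at 11.4 CPM and *Isg20* at 14.5 CPM were below all of them. *Spo11* was at 9.82 CPM (5.91 to 15.3). Since these 8 cells come from 7 libraries and the cluster was drawn on all of them, they are no replicate.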

How the data were processed

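Counts of UMIs per gene and cell were used as the authors deposited them, without normalization. Per the paper's methods, UMItools extracted barcodes and UMIs, STAR 2.7.2b aligned reads to mm10, featureCounts 2.0.0 assigned them to genes, and cells with few genes or many mitochondrial reads were removed. Clusters and batches came from the deposited annotation, whose totals matched the counts in all 4464 cells. The table held 24615 genes. No doublet caller was run, since cells were picked singly by hand, and columns not mapped to a sample numbered 0.

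Each library's counts were added up within a class that had 5 cells or more, and libraries held 15975410 to 34609591 UMIs in all. The sums held 433094 to 34168335 UMIs for SSC1-4 and 1710477 to 20934538 for Meiotic 1. They were tested in R 4.3.3 with edgeR 4.0.16 (TMM, filterByExpr, glmQLFit, glmQLFTest, Benjamini-Hochberg over all genes tested), with DESeq2 1.42.0 as an alternative. SEs are the log2 fold change divided by the square root of F. The library was a block in shared libraries: sums of the same library deviated together, with correlations of 0.106 to 0.197 for SSC1-4 and 0.129 to 0.258 for Meiotic 1. On simulated counts the test within shared libraries recovered 35% of genes changed by 1 on the log2 scale and 78% of those changed by 2, with 4 false calls among 13174 genes, so that smaller differences could be missed. The changed genes were all at 10 CPM or more, and no library effect was simulated. These shares therefore do not hold for genes below that level. Other values were computed in Python 3.11.15 with scipy 1.17.1. Exact intervals at the 95% level cover counting error only. Log2 differences within a library are of CPM plus 1. Gene coordinates were taken from GENCODE vM21 (GRCm38, the assembly of mm10).

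The members and gene lists were chosen with earlier results of these data known. Named were the markers, 2 to 6 members of each list described (called or defining), and the 12 genes in each direction with the largest log2 fold change among those called within shared libraries, at 10 CPM or more in the higher class and of 1 sign in every library. Alternatives were another threshold, scaling, filter, tool, minimum of cells, block and depth, SSC1 alone, 1 batch, and leaving out each library.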

Additional observations from a re-analysis of the deposited data

Results flagged for a closer look

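Among the genes named, 234 groups of 4 to 6 libraries whose highest level was at least 10 CPM were checked for 1 library far from the rest by Dixon's criterion, and 27 (11.5%) were found. Chance gives about 1 in 20 groups, and genes of 1 library are not independent of each other.

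In Meiotic 2, 8 genes had such a library. In replicate 4, of batch B2, *Elavl2* (33.1 CPM), *Hsf2bp* (139 CPM), *Nanos3* (384 CPM), *Ifi47* (49.9 CPM), *Irgm1* (107 CPM) and *Oasl2* (104 CPM) stood above the others and *Mvd* (185 CPM) below them. *Gbp2* stood high in replicate 5 (164 CPM).

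In SSC1-4, 13 genes had such a library. In replicate 4, whose SSC1-4 cells are the most numerous and the deepest of the 4 libraries, *E2f8* (16.2 CPM), *Ccng1* (136 CPM), *Sox2* (17.3 CPM), *Gm26620* (22.3 CPM) and *Oasl2* (59.9 CPM) stood high and *Dazl* (828 CPM) and *Top2a* (316 CPM) low. In replicate 1 *Plk1* (247 CPM), *Smad7* (90.2 CPM) and *Bmpr1a* (128 CPM) stood high and *Egr1* (95.2 CPM) low, and in replicate 2 *Kit* (24.6 CPM) and *Kif11* (77.0 CPM) stood high.

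In Meiotic 1, 6 genes had such a library: *Piwil1* (43.4 CPM), *Zfp36* (94.9 CPM) and *Pou5f1* (37.1 CPM) in replicate 4, *Kit* (27.1 CPM) and *Gm28578* (50.1 CPM) in replicate 2 and *E2f8* (26 CPM) in replicate 5.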

How the results depend on the processing

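None of the 31 called genes named against SSC1-4 in shared libraries changed sign under the alternatives, whereas uncalled ones did, such as *Spo11* (log2 -0.24 to 0.73), *Zbtb16* (-0.24 to 0.39) and *Stra8* (-0.25 to 0.26). Of the 31 called genes named against SSC1-4 in shared libraries, 29 stayed called with RLE size factors, 27 with every gene of at least 1 UMI, 27 with DESeq2, 17 against SSC1 alone, 12 to 18 with 1 library left out, 10 at the stricter threshold, 7 with at least 10 cells, 5 of 28 with thinned sums and 1 without the replicate block. *Top2a* and *Crabp2* stayed called in 12 of 13 alternatives, *Junb* in 11, *Mki67* in 9 (log2 -2.53 to -1.55, edgeR and DESeq2 adjusted p up to 0.251) and *Dnmt3l* in 6, but *Kif11* and *Smad7* in 5, *Nusap1* and *Oasl2* in 4, *Socs3* and *Bmpr1a* in 3 and *Zbp1* in 2. Counts of calls, higher and lower, were 8 and 4 at an adjusted p below 0.01 and a natural-log fold of at least 1, 3 and 8 with at least 10 cells (2 libraries), 0 and 1 without the replicate block (1185 genes at an unadjusted p below 0.05), 3 and 4 with sums thinned to the smaller total, 62 and 104 against SSC1 alone and 36 and 60 with DESeq2. With 1 library left out they were 8 to 22 and 19 to 76: 9 and 21 without replicate 1, 12 and 29 without replicate 2, 22 and 76 without replicate 4 and 8 and 19 without replicate 5. With cells of at least 100000 UMIs only replicate 4 remained and no fit could be made.

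Over all libraries the counts were 18 and 32 at the stricter threshold, 456 and 202 with every gene of at least 1 UMI, 187 and 447 with DESeq2, 267 and 419 with at least 10 cells, 294 and 453 with cells of at least 100000 UMIs, and 51 to 86 and 106 to 135 with any of the 5 Meiotic 2 libraries left out. Chosen after seeing the data, SSC1-4 of days 14 and 18 alone gave 390 and 336, and SSC1-4 sums of at least 100000 median UMIs 265 and 397. Against Meiotic 1 they were 19 and 39 at the stricter threshold, 681 and 451 with DESeq2, 67 and 130 with at least 10 cells, 78 and 172 without the replicate block, and 116 to 290 and 179 to 271 with 1 library left out, replicates 1, 2, 3 and 5 each lowering the higher calls by over 1.5 times (138, 116, 133 and 141). For SSC1-4 of day 16 against days 14 and 18 they were 13 and 8 at the stricter threshold, 435 and 603 with DESeq2, 42 and 30 with at least 10 cells, 4 and 8 with sums of at least 100000 median UMIs (chosen after seeing the data), and 69 to 343 and 102 to 451 with 1 library left out, 343 and 451 without replicate 4, 69 and 114 without replicate 6 and 130 and 102 without replicate 5. With cells of at least 100000 UMIs 1 sum of day 16 was left and batch B1 dropped out, so no count is given. The cause of the differences between these counts was not tested. RLE size factors moved the split of calls within shared libraries to 24 higher and 51 lower. Depth limits the SSC1-4 sums of day 16 replicates 1, 2, 5 and 6, at 433094 to 878535 UMIs.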
